A study of Mus musculus with 12 samples.

Results

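Whole brains of mice homozygous for the h4 allele of Rorb were set directly against whole brains of mice homozygous for the h1 allele, using 6 of the 12 libraries of the series, 3 mice per genotype and 1 library per mouse. The h4 mice (Rorbh4/h4) carried the background strain label B6.129S7-Il1r1tm1Imx/J and the h1 mice (Rorbh1/h1) the label C57BL/6J, and all were 6 weeks old. Both groups are Rorb mutants of the high stepper series, so neither is a wild type, and the allele and the background cannot be told apart in this contrast. The h2 mice (Rorbh2/h2, on B6(Cg)-Tyrc-2J/J) and the wild type mice (WT, on C57BL/6J), 3 of each, also 6 weeks old, entered no test here and are given as levels beside some genes. The contrast asks which brain transcripts differ between a pair of alleles of the same gene.

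Rorb encodes a nuclear receptor of the ROR family that binds DNA as a transcription factor. It is best known as a marker of layer 4 neurons of the sensory neocortex and is also expressed in thalamic relay nuclei, in the retina and in the spinal cord. Loss of its function in rodents gives a high-stepping gait. Il1r1, the gene named in the h4 background label, encodes the signalling receptor for interleukin 1.

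Libraries held 17667258 to 18388706 expected counts in h4 and 20310860 to 24000838 in h1, so that every h4 library was shallower than every h1 library. The share of counts from the mitochondrial genome was 7.83% to 8.32% in h4 and 7.57% to 7.87% in h1. Xist, transcribed from the inactive X chromosome, was high in h4 replicates 1 and 3 and in h1 replicate 1, so the sexes were mixed in both groups but not in equal numbers. It was high in all 3 WT libraries (866 to 891 CPM) and in h2 replicate 2 only. The WT levels given below thus come from a group that was not mixed, and the part of sex in them was not tested. The part of depth in the differences below was not tested. The genes described here whose call ended in a fit with Xist as a covariate are named with the results of other fits. This leaves out Fosl2, Jun and Gadd45b, for which only the count of their list in that fit is given. All 10 genes of a brain check list (Snap25, Map2, Mbp and others) were measured, and of 9 markers of other organs 7 fell below the low-count filter, the other two being Myh7 at 16.5 CPM in h4 and 14 CPM in h1 and Acta1 at 3.57 CPM in h4 and 3.51 CPM in h1. CPM values are expected counts divided by the total of each library.

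Of 15967 genes tested with edgeR's quasi-likelihood test, 981 (6.14%) passed at 0.05 after Benjamini-Hochberg adjustment, and such genes are named called genes here. In h4, 414 genes were higher (2.59% of those tested) and 567 were lower (3.55%). Most differences were small: the median fold among the called genes was 1.156, 653 of them (66.6%) differed by less than 1.2-fold, and 28 differed by more than 2-fold, 19 of them higher and 9 lower in h4. The libraries of the groups did not overlap for 962 of the 981 called genes, against 24.5% of all genes tested. Of the lower calls, 379 lay among the 3992 genes with the highest mean CPM, of which 127 were higher. The shares of all genes set beside the lists below are not matched for level, and many listed genes are abundant. Removing 1 library changed the number of calls to 431 without h1 replicate 3 or without h4 replicate 1, 487 without h1 replicate 2, 600 without h4 replicate 3, 640 without h1 replicate 1 and 1155 without h4 replicate 2. The counts of a list in the leave-outs, given below, are to be set beside these totals. All 981 kept their sign in each of these 6 fits, and 266 were called in every one of them, 107 higher and 159 lower. For the 962 without overlap, leaving out 1 library could hardly turn the sign, so the kept sign is no check of them.

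Rorb itself had the largest fall of the genes named by rule. It lies on the minus strand of chr19:18930605-19111196 in GRCm38 (ENSMUSG00000036192). Its level was 9.11, 8.65 and 8.66 CPM in the h4 libraries, against 23.2, 33.1 and 22.6 CPM in the h1 libraries. The 3 h4 values were close to each other and every one lay below the lowest h1 value. The means were 8.80 ± 0.262 CPM in h4 and 26.3 ± 5.89 CPM in h1 (SD, n = 3 each), which gave -1.60 ± 0.18 (SE) on the log2 scale with an edgeR adjusted p of 0.00497. The WT mean was 17.3 CPM, between the mutants, and the h2 mean was 28.2 CPM, close to h1. The exact permutation test, 2-sided, gave p = 0.1, the smallest that 3 against 3 libraries allow. The adjusted p missed the threshold in 2 of the 6 leave-outs: it was 0.0514 without h4 replicate 2 and 0.0686 without h4 replicate 3, at log2 fold changes of -1.59 and -1.58. The transcript length that RSEM estimated for Rorb was 8694, 8587 and 8953 bases in the h4 libraries, against 9221, 9134 and 9107 bases in the h1 libraries. Every h4 estimate was shorter than every h1 estimate (exact permutation p = 0.1, the smallest possible). The estimates were 8927, 9124 and 9083 bases in WT and 8914, 9293 and 9232 bases in h2. Replicate 1 of WT and of h2 thus fell within the h4 range. Its relative Rora and the REV-ERB genes Nr1d1 and Nr1d2, whose products bind similar DNA elements, had log2 fold changes of 0.05, -0.02 and -0.01 and did not pass the test.

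Il1r1 was higher in h4, the background whose label names a targeted Il1r1 allele. The gene lies on the plus strand of chr1:40225080-40317257 in GRCm38. Its level was 10.9, 16.9 and 12.5 CPM in the h4 libraries, against 8.27, 8.87 and 7.87 CPM in the h1 libraries. The groups did not overlap, and h4 replicate 2 stood above the other h4 libraries. The log2 fold change was 0.67 (SE 0.15, edgeR adjusted p = 0.0211), and the exact permutation p was again 0.1. The call was lost without h1 replicate 1 (adjusted p = 0.0971), h1 replicate 2 (0.068), h1 replicate 3 (0.111) or h4 replicate 3 (0.053), with log2 fold changes of 0.63 to 0.72. Without h4 replicate 2 it was called at a log2 fold change of 0.46 (edgeR adjusted p = 0.0108). Which part of the gene the reads came from cannot be read from gene-level values, so the level does not check the targeted allele. Of the 12 measured genes of the interleukin 1 signalling list, 2 others passed, both lower in h4: Irak2, a kinase that binds the activated receptor complex (log2 fold change -0.52, SE 0.09, edgeR adjusted p = 0.00143), and Il1rap, the receptor's accessory chain (-0.14, SE 0.04, adjusted p = 0.0494). Irak2 was called in all 6 leave-outs and Il1rap in 1. Over all genes tested, 3.55% were lower and 2.59% higher in h4.

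**Figure D1:**
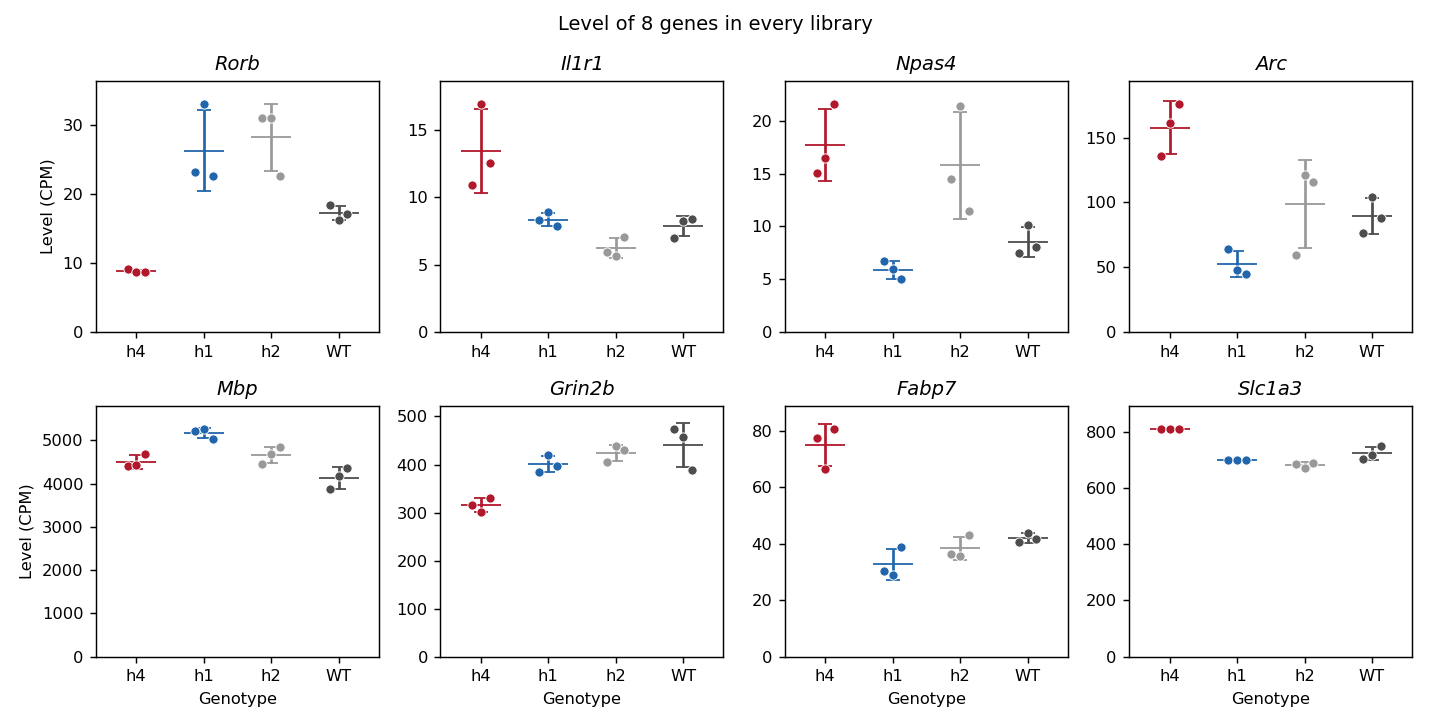
Level of 8 genes in CPM (vertical axes, from 0) in each library of the h4, h1, h2 and WT genotypes; points are libraries, horizontal lines are means and bars are SD (n = 3). Rorb, Mbp and Grin2b lay lower in every h4 library than in every h1 library, and Il1r1, Npas4, Arc, Fabp7 and Slc1a3 lay higher.

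The list with the highest median was that of the immediate early genes, which neurons transcribe within minutes of activity and whose products are mostly transcription factors. Of 26 members measured, 10 rose in h4 (2.59% of all genes rose) and none fell. Their median log2 fold change was 0.61, against 0.004 over all genes tested, 24 of the 26 had a positive value, and in 20 every h4 library lay above every h1 library (15% of all genes), while in none did every h4 library lie below (9.53% of all genes). The summed level of the list was 1107, 1224 and 1304 CPM in the h4 libraries, against 851, 713 and 778 CPM in the h1 libraries. The lowest h4 sum was thus above the highest h1 sum. In WT the sums were 942, 987 and 928 CPM, between those of the mutants.

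Npas4, a transcription factor induced by calcium influx in neurons, was at 15.1, 16.5 and 21.6 CPM in the h4 libraries, against 6.70, 5.94 and 5.04 CPM in the h1 libraries. The groups were far apart (log2 fold change 1.58, SE 0.14, edgeR adjusted p = 6.15e-05), and the call held in all 6 leave-outs. Fosb, a subunit of the AP-1 factor, was at 12.2, 13.3 and 14.2 CPM in the h4 libraries, against 7.68, 5.71 and 6.04 CPM in the h1 libraries. Its log2 fold change was 1.01 (SE 0.11, edgeR adjusted p = 1.43e-05). In a fit over all 12 libraries its adjusted p was 0.0813 at the same fold change. Nr4a2, an orphan nuclear receptor that is also a marker of deep cortical neurons, was at 36.0, 40.1 and 41.6 CPM in the h4 libraries, against 28.7, 26 and 28.5 CPM in the h1 libraries (log2 fold change 0.48, SE 0.06, edgeR adjusted p = 8.55e-05). Klf10, a zinc finger factor, averaged 31.2 ± 1.41 CPM in h4 and 21.2 ± 2.0 CPM in h1 (SD, n = 3 each; log2 fold change 0.54, SE 0.07, edgeR adjusted p = 7.48e-05). Fosb, Nr4a2 and Klf10 too were called in all 6 leave-outs.

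Arc, whose product acts at synapses in the removal of AMPA receptors, was at 136, 161 and 176 CPM in the h4 libraries, against 63.9, 48.0 and 45.1 CPM in the h1 libraries. The log2 fold change was 1.58 (SE 0.18, edgeR adjusted p = 0.0241), and it was called without h1 replicate 1 only among the leave-outs, the adjusted p in the other 5 lying at 0.064 (h4 replicate 2), 0.0643 (h4 replicate 1), 0.0833 (h4 replicate 3), 0.0949 (h1 replicate 3) and 0.101 (h1 replicate 2). With Xist as a covariate it was 0.0695. Egr2, a zinc finger factor that in Schwann cells controls myelination, had the largest fold change of all named genes, 2.11 on the log2 scale (SE 0.37, edgeR adjusted p = 0.0497). It was at 9.66, 8.92 and 13.4 CPM in the h4 libraries, against 3.89, 1.44 and 2.04 CPM in the h1 libraries. It lost its call without h1 replicate 3 (adjusted p = 0.181), h4 replicate 1 (0.133), h4 replicate 2 (0.0764) or h4 replicate 3 (0.0789), in the fit to all 12 libraries (0.0566) and with limma on log2 CPM (0.0657). Nr4a3, a relative of Nr4a2, was at 54.1, 54.1 and 61.1 CPM in the h4 libraries, against 31.3, 22.3 and 22.6 CPM in the h1 libraries (log2 fold change 1.14, SE 0.15, edgeR adjusted p = 0.0175). Its adjusted p was 0.0727, 0.0545 and 0.0631 without h4 replicates 1, 2 and 3. Fosl2, Jun and Gadd45b made up the rest of the 10.

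Several of the most used immediate early markers had large fold changes that did not pass. They are named here after their values were seen. Fos averaged 49.2 CPM in h4 and 15.4 CPM in h1, a log2 fold change of 1.66 with an edgeR adjusted p of 0.102. Nr4a1 averaged 70.5 CPM in h4 and 30.6 CPM in h1 (log2 fold change 1.18, edgeR adjusted p = 0.0513), and Junb 32.9 CPM in h4 and 14.7 CPM in h1 (1.15, adjusted p = 0.0853). Egr1 averaged 180 CPM in h4 and 116 CPM in h1 (0.62, adjusted p = 0.156). Klf2 and Klf4, which were among the list, had negative values of -0.18 and -0.16. DESeq2 called 15 members higher, edgeR over all 12 libraries 8 and the fit with the Xist covariate 7. Among the leave-outs the number fell to 5 without h1 replicate 3 and 6 without h4 replicate 1, and was 7 to 10 in the others.

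**Figure D2:**
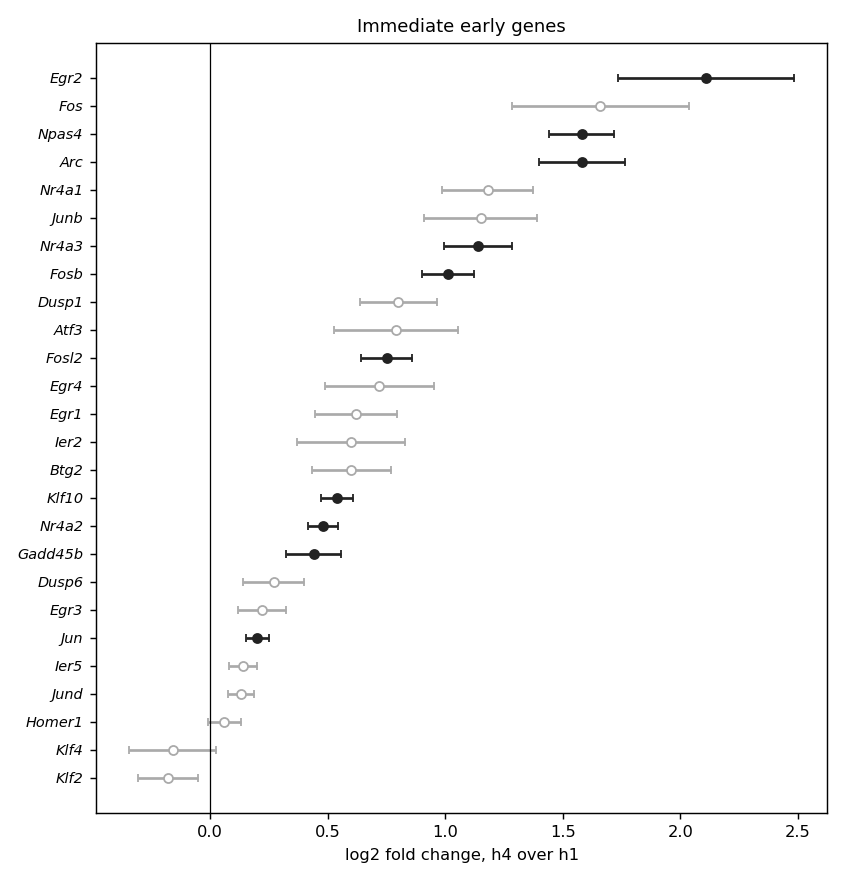
log2 fold change of h4 over h1 (horizontal axis) for the 26 immediate early genes measured; bars are standard errors, filled points passed an edgeR adjusted p under 0.05 and open points did not. The points run from -0.18 for Klf2 to 2.11 for Egr2, and all 10 filled points lie above 0.

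The bases before the start are shown for the 4 of these genes with the smallest p that matched a promoter window, because the genes moved together in h4. Each line holds the 250 bases upstream of the start in the RefSeq table of promoters (GRCm38.p6), read 5′ to 3′ on the strand of the gene, and capitals mark the motif TGACG on either strand, the core of the cyclic AMP response element bound by CREB.
Npas4 (chr19:4989972-4990221, minus strand): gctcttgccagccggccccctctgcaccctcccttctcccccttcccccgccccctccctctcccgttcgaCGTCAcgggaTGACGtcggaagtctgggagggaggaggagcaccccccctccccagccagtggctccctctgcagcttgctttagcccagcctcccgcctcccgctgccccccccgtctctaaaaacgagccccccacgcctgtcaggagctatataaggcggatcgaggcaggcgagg
Fosb (chr7:19310046-19310295, minus strand): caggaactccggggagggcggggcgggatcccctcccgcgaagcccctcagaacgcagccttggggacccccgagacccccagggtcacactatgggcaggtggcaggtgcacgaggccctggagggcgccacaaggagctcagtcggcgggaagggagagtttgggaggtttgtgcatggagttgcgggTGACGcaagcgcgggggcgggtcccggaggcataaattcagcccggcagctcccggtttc
Nr4a2 (chr2:57124004-57124253, minus strand): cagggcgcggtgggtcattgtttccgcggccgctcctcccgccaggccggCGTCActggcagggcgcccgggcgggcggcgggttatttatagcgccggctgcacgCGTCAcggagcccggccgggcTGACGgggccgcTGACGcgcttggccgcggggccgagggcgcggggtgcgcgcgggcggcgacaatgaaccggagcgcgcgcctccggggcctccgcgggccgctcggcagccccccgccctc
Fosl2 (chr5:32136222-32136471, plus strand): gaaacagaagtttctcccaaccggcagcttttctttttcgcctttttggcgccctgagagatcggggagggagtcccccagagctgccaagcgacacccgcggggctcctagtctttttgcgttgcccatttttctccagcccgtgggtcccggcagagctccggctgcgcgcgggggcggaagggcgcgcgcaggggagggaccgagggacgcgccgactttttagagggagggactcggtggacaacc
The motif occurred once in the Fosb window, 2 times in that of Npas4, 4 times in that of Nr4a2 and not in that of Fosl2. Of the 10 immediate early genes that rose, 8 matched a window of that table whose start lay within 1000 bases of the annotated start. Of these, 4 held TGACG, as did 10 of the 16 windows of all immediate early genes tested that matched (62.5%) and 26.9% of the 10835 windows of genes tested. TGACGTCA, the full element, which contains TGACG on both strands, occurred in none of the 8 windows and in 304 of 10835 (2.81%). The serum response element also occurred in none of the 8, and in 113 of 10835 (1.04%). The motif AGGTCA, which nuclear receptors including Rorb bind, occurred in 14 of 274 windows of genes that rose (5.11%), in 26 of 372 windows of genes that fell (6.99%) and in 1115 of all 10835 windows (10.3%). A match is a string of letters in a window and not a site shown to be bound.

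Many transcripts of myelinating oligodendrocytes were lower in h4. Of 20 members of the list measured, 12 fell (3.55% of all genes fell) and none rose, with a median log2 fold change of -0.17. The summed level was 13794, 13718 and 14759 CPM in the h4 libraries, against 15787, 16067 and 15640 CPM in the h1 libraries. In whole tissue, fewer cells of a type and less RNA per cell cannot be told apart. Mbp, a major structural protein of compact myelin, was at 4399, 4429 and 4693 CPM in the h4 libraries, against 5211, 5272 and 5041 CPM in the h1 libraries. The h4 values lay together below those of h1 (log2 fold change -0.22, SE 0.02, edgeR adjusted p = 1.56e-05). Mobp, another myelin protein, was at 1694, 1761 and 1816 CPM in h4, against 2113, 2172 and 1976 CPM in h1 (log2 fold change -0.27, SE 0.03, edgeR adjusted p = 0.000388). Cldn11, which seals the layers of the sheath, and Mog, on its outer surface, had log2 fold changes of -0.21 (SE 0.04, edgeR adjusted p = 0.0019) and -0.20 (SE 0.04, adjusted p = 0.00212). All 4 were called in all 6 leave-outs. Opalin, by contrast, had a positive value of 0.18 that did not pass (edgeR adjusted p = 0.0714).

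The WT means lay beyond those of h4. For all 12 called myelin genes the WT mean was below the h4 mean, as with Mbp at 4507 ± 162 CPM in h4, 5175 ± 120 CPM in h1 (SD, n = 3 each) and 4129 CPM in WT. The WT sums of the list were 12188, 12916 and 13885 CPM. WT and h1 share the label C57BL/6J. The number of calls in the list was 6 without h1 replicate 2 or without h4 replicate 1, 8 to 13 in the other leave-outs, 9 with all 12 libraries and 10 with the Xist covariate. Earlier stages of the lineage were mixed: of 12 measured genes of the precursor list 3 fell and 1 rose (3.55% of all genes fell and 2.59% rose). Without h1 replicate 3 only 1 of the precursor list fell. Olig1 and Olig2, transcription factors of the whole lineage, had log2 fold changes of -0.22 (SE 0.04, edgeR adjusted p = 0.00184) and -0.27 (SE 0.06, adjusted p = 0.00757), and Tnr, an extracellular matrix protein, of -0.22 (SE 0.05, adjusted p = 0.00931). Ptprz1, a receptor phosphatase also made by astrocytes, rose by 0.17 (SE 0.03, edgeR adjusted p = 0.00384).

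Some genes of the synapse fell, by small amounts. In the list of synaptic vesicle release 6 of 20 fell (3.55% of all genes fell) and none rose (median log2 fold change -0.11), and in that of the postsynaptic density 5 of 15 fell and none rose (median -0.10). Bsn, a scaffold of the presynaptic active zone, was at 270, 273 and 274 CPM in the h4 libraries, against 330, 322 and 311 CPM in the h1 libraries (log2 fold change -0.26, SE 0.03, edgeR adjusted p = 7.48e-05), and with all 12 libraries its adjusted p was 0.175. Syt1, the calcium sensor of vesicle fusion, was at 1134, 1159 and 1132 CPM in h4, against 1219, 1272 and 1245 CPM in h1 (log2 fold change -0.14, SE 0.03, edgeR adjusted p = 0.00279). Unc13a, which primes vesicles, and Stx1a, a membrane protein of the fusion complex, had values of -0.18 and -0.20 (edgeR adjusted p = 0.00651 and 0.00893). On the receiving side, the scaffolds Shank1, Dlgap3 and Dlgap2 had values of -0.22, -0.17 and -0.23 (edgeR adjusted p = 0.00682, 0.00806 and 0.0322). With all 12 libraries the adjusted p of Shank1 was 0.311. For all 5 postsynaptic genes called, the WT mean was above the h1 mean, so h4 stood furthest from WT there.

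Among the ion channels and receptors named here, Grin2b had the smallest adjusted p. Like Grin2a and Grin1, it encodes a subunit of NMDA receptors. Grin2b was at 316, 302 and 330 CPM in the h4 libraries, against 385, 419 and 398 CPM in the h1 libraries. The highest h4 value lay well below the lowest h1 value (log2 fold change -0.36, SE 0.04, edgeR adjusted p = 1.14e-05). Grin2a was at 35.9, 31.9 and 35.4 CPM in h4, against 41.8, 43.4 and 46.3 CPM in h1 (log2 fold change -0.37, SE 0.06, edgeR adjusted p = 0.000557), and with all 12 libraries its adjusted p was 0.142. Grin1, the subunit that all NMDA receptors need, had a smaller value of -0.13 (SE 0.03, edgeR adjusted p = 0.0214). These were the only 3 called of 17 ionotropic glutamate receptor genes measured, and none rose. Over all genes tested, 3.55% fell and 2.59% rose, the shares to set beside the counts of this paragraph. Cacna1i, a low-voltage calcium channel that thalamic reticular neurons use for burst firing, was at 72.3, 69.9 and 75.1 CPM in h4, against 90.5, 89.3 and 88.5 CPM in h1 (log2 fold change -0.32, SE 0.04, edgeR adjusted p = 4.28e-05), the only called gene of 16 sodium and calcium channels. Of 27 potassium channels 4 fell, among them Kcna1, Kcnk2 and Kcnma1, with log2 fold changes of -0.17, -0.18 and -0.17 (edgeR adjusted p = 0.0235, 0.0347 and 0.0438). Of 13 GABA-A subunits 1 rose and 1 fell, the rise being that of Gabrg1, by 0.23 (adjusted p = 0.0133).

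The counts of the synaptic lists moved with single libraries, as did those of all genes. Over all genes, the 981 calls became 431 without h1 replicate 3 or h4 replicate 1, 487 without h1 replicate 2 and 640 without h1 replicate 1. The 6 vesicle calls became 3 without h1 replicate 3 and 4 to 6 in the other leave-outs. The 5 postsynaptic calls became 1 without h4 replicate 1, 2 without h1 replicate 3 and 3 without h1 replicate 1, and were 5 or 6 in the rest. The 4 potassium channel calls became 1 without h1 replicate 2 and 2 without h1 replicate 3 or h4 replicate 1. Grin2b, Grin2a, Cacna1i, Bsn and Syt1 were called in all 6 leave-outs.

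**Figure D3:**
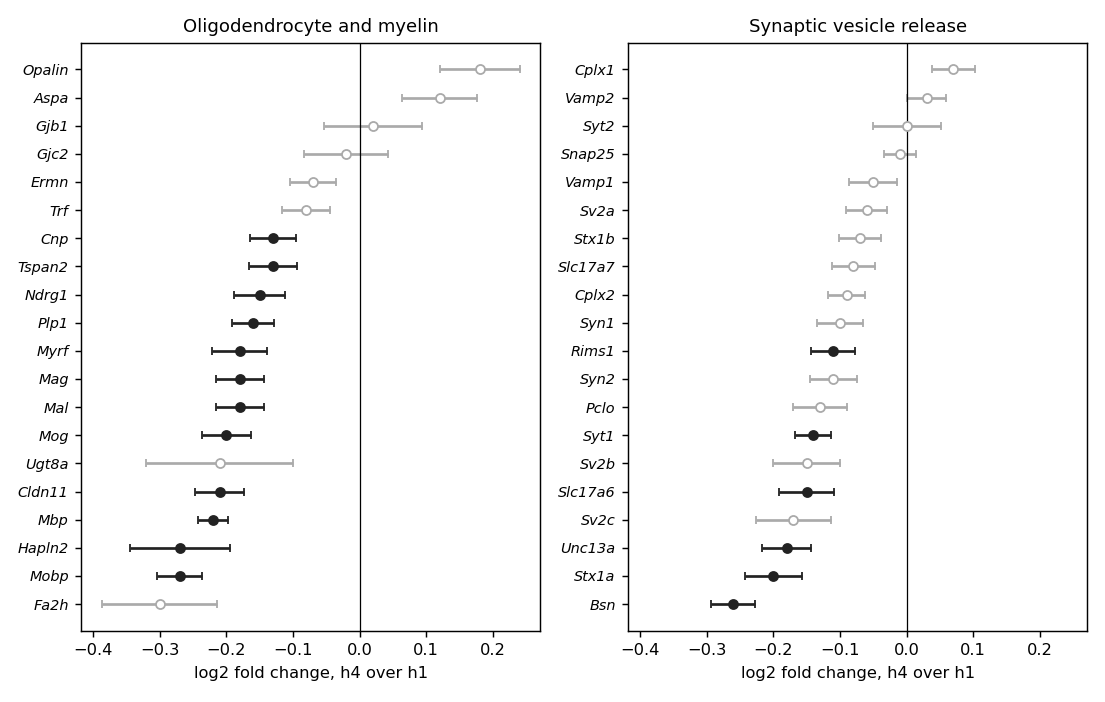
log2 fold change of h4 over h1 (horizontal axes) for the measured genes of the myelin and synaptic vesicle lists; bars are standard errors, filled points passed an edgeR adjusted p under 0.05 and open points did not. The 12 filled points of the first list and the 6 of the second all lie below 0.

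Layer markers of the neocortex other than Rorb had the same median in the upper and deep lists, though fewer calls in the upper one. Of 17 genes of layer 4 and the upper layers 1 fell and none rose. Of these 17, 13 had a negative value, and the median log2 fold change was -0.11. Without h4 replicate 2 the list had 4 lower calls. Of 16 deep layer genes 4 fell (3.55% of all genes fell), and Nr4a2, also an immediate early gene, rose. Here 12 had a negative value, and the median log2 fold change was also -0.11. The 4 deep layer calls became 1 without h1 replicate 3 or h4 replicate 1 and 2 without h1 replicate 2 or h4 replicate 3. Without h4 replicate 2 they were 4, as in the upper list. Pcp4, a calmodulin-binding protein, was at 225, 235 and 247 CPM in h4, against 266, 275 and 270 CPM in h1 (log2 fold change -0.22, SE 0.04, edgeR adjusted p = 0.000981), and Tbr1, a transcription factor of layer 6, at 49.7, 50.6 and 51.1 CPM in h4, against 55.7, 57.0 and 58.4 CPM in h1 (-0.20, SE 0.05, adjusted p = 0.0117). Of 16 thalamic genes 1 fell, Slc17a6, the vesicular glutamate transporter of subcortical neurons (-0.15, SE 0.04, edgeR adjusted p = 0.0289), which was called in 2 of the 6 leave-outs. None of 16 striatal genes passed, while the test called 8 of them lower without h4 replicate 2, 3 in the fit to all 12 libraries and 1 without h1 replicate 2, and DESeq2 called 2. Of 17 cerebellar genes Pvalb rose (0.15, SE 0.04, edgeR adjusted p = 0.0307), where 2.59% of all genes rose. Without h4 replicate 2, 8 cerebellar genes were called higher, against none without h1 replicate 1, h1 replicate 3, h4 replicate 1 or h4 replicate 3. The summed level of the cerebellar list was 3096, 2647 and 3230 CPM in the h4 libraries and 2860, 2830 and 2772 CPM in the h1 libraries, so h4 replicate 2 stood below the other h4 brains.

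Glial and vascular lists held changes in both directions. Slc1a3, the astrocyte glutamate transporter GLAST, was at 811, 808 and 809 CPM in the h4 libraries, against 698, 700 and 700 CPM in the h1 libraries, with very little spread within either group (log2 fold change 0.19, SE 0.03, edgeR adjusted p = 0.000255). S100b and Sox9, a calcium-binding protein and a transcription factor of astrocytes, rose too (0.19 and 0.35, edgeR adjusted p = 0.00288 and 0.0153). Glul, the enzyme that turns glutamate into glutamine, was at 1180, 1273 and 1143 CPM in h4, against 1509, 1575 and 1447 CPM in h1 (log2 fold change -0.35, SE 0.05, edgeR adjusted p = 0.00291). Without h4 replicate 2 the astrocyte list had 5 higher calls, and it had no lower call without h4 replicate 1 and 2 without h1 replicate 1. The summed astrocyte list was 7478 to 7704 CPM in h4 and 7899 to 8247 CPM in h1. Its most abundant genes, Slc1a2 and Glul, weigh most in that sum, and Slc1a2 averaged 2419 CPM in h4 and 2814 CPM in h1 (edgeR adjusted p = 0.0693). Of the 15 genes measured, 10 had a positive value (median log2 fold change 0.07). By call, 3 rose and 1 fell (2.59% of all genes rose and 3.55% fell). Fabp7, a fatty acid binding protein of radial glia and astrocytes, was among the largest rises, at 77.5, 66.5 and 80.8 CPM in h4, against 30.2, 29.0 and 38.9 CPM in h1 (log2 fold change 1.17, SE 0.15, edgeR adjusted p = 0.0206). Its call held in 2 of the 6 leave-outs, and its adjusted p was 0.0813 with the Xist covariate.

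Some mural cell and meningeal genes were higher in h4. Of 12 pericyte and smooth muscle genes 4 rose (2.59% of all genes rose) and none fell: Myh11, a smooth muscle myosin (log2 fold change 0.47, SE 0.09, edgeR adjusted p = 0.00352), Notch3 (0.31, adjusted p = 0.0193), Vtn (0.16, adjusted p = 0.0264) and Tagln (0.38, adjusted p = 0.0357). The summed list was 337 to 360 CPM in h4 and 304 to 329 CPM in h1. Of 19 meningeal fibroblast genes 4 rose, led by Col3a1, a fibrillar collagen, at 19.0, 18.1 and 18.1 CPM in h4, against 12.2, 13.1 and 13.4 CPM in h1 (log2 fold change 0.49, SE 0.08, edgeR adjusted p = 0.000635). Their summed list was 1278 to 1374 CPM in h4, 1171 to 1269 CPM in h1 and 986 to 1099 CPM in WT. Endothelial genes went both ways, with Cd93 and Cldn5 higher (0.42 and 0.40, edgeR adjusted p = 0.0136 and 0.0217) and Mfsd2a, the lipid transporter of the blood-brain barrier, lower (-0.51, SE 0.08, adjusted p = 0.000933). The number of mural calls was 1 without h1 replicate 2, h1 replicate 3 or h4 replicate 3 and 2 without h4 replicate 1, and that of meningeal calls 2 without h1 replicate 2, h1 replicate 3, h4 replicate 2 or h4 replicate 3. No gene passed among 16 microglial, 18 choroid plexus or 12 ependymal markers.

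The glucocorticoid response list had the lowest median of the lists with 10 or more genes measured, but its genes varied widely. Of 15 measured, 14 had a negative value and the median log2 fold change was -0.41, while Mt1, a metallothionein, was the only call (-0.36, SE 0.07, edgeR adjusted p = 0.0396). Over all genes tested, 3.55% fell. The summed level was 821, 906 and 723 CPM in the h4 libraries, against 1021, 1184 and 932 CPM in the h1 libraries. The sums did not overlap, and those of WT were 695, 856 and 753 CPM, at the level of h4. The number of lower calls was 0 without h1 replicate 1 or h4 replicate 3, 2 without h4 replicate 1 or h4 replicate 2, and 4 without h1 replicate 3. Without h4 replicate 3, 1 gene of the list was called higher. DESeq2 called 4 lower.

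**Figure D4:**
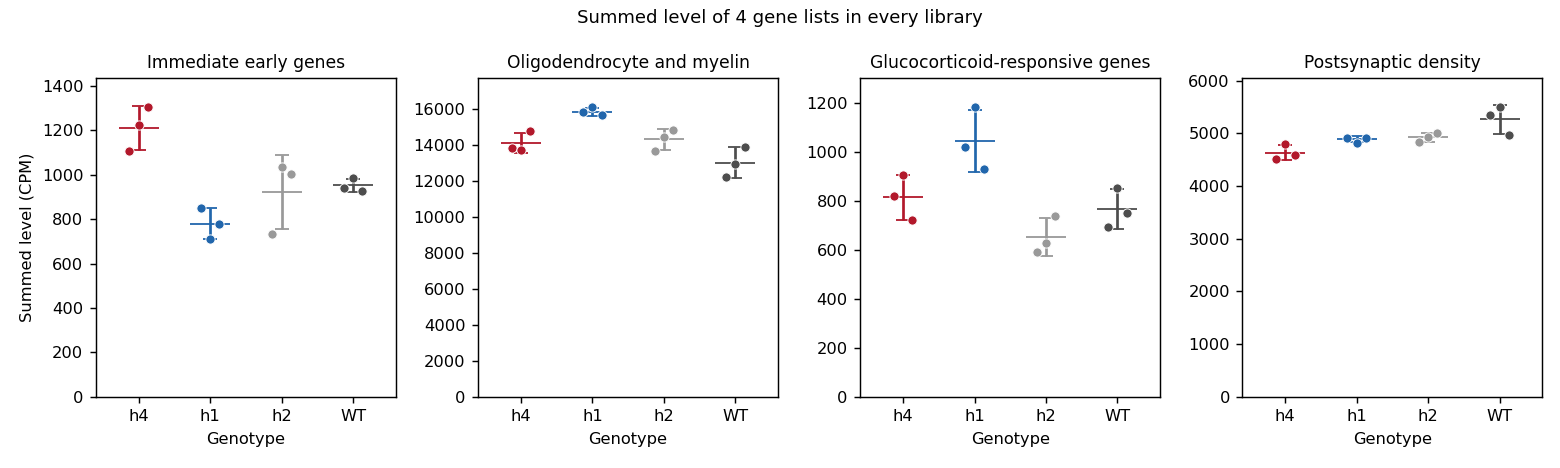
Summed level in CPM (vertical axes, from 0) of 4 gene lists in each library of the h4, h1, h2 and WT genotypes; points are libraries, horizontal lines are means and bars are SD (n = 3). The immediate early sums are highest in h4 (1107 to 1304 CPM), while the myelin and glucocorticoid sums are highest in h1 (15640 to 16067 CPM and 932 to 1184 CPM).

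Some chaperone and immune genes rose as well (2.59% of all genes rose). Of 17 cytosolic heat shock genes 4 rose (Hspa1a, Dnajb1, Bag3 and Hspb8, with log2 fold changes of 0.50, 0.26, 0.31 and 0.26), a number that was 0 without h1 replicate 2 or h1 replicate 3, 1 without h4 replicate 2 and 2 without h4 replicate 1 or h4 replicate 3. Hspa1a shares nearly all of its sequence with Hspa1b, so its value as a single gene is uncertain. Of 22 genes of folding in the endoplasmic reticulum 3 fell (3.55% of all genes fell), and 20 of the 22 were negative. Among the 3 was Atf4, a transcription factor of the stress response (-0.18, SE 0.04, edgeR adjusted p = 0.00538). Those 3 calls became 1 without h1 replicate 2, h1 replicate 3 or h4 replicate 1 and 5 without h4 replicate 2. Of 21 interferon-stimulated genes 19 had a positive value (median log2 fold change 0.31), and 3 passed, among them Ifit1 and Irf9 (0.63 and 0.34, edgeR adjusted p = 0.0263 and 0.0145). That count was 0 without h1 replicate 3, h4 replicate 1 or h4 replicate 3, 1 without h1 replicate 1 or h1 replicate 2, and 6 without h4 replicate 2. B2m, H2-D1 and Tap1 rose among 14 genes of antigen presentation by MHC class I (0.17, 0.21 and 0.60, edgeR adjusted p = 0.0183, 0.0218 and 0.0392). B2m and H2-D1 were called in 1 of the 6 leave-outs and Tap1 in none, and the list had no call without any library other than h4 replicate 2.

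Of 19 genes of cholesterol synthesis and uptake 3 rose and 1 fell (2.59% of all genes rose and 3.55% fell). Insig1, which holds back sterol synthesis, was at 108, 103 and 111 CPM in h4, against 86.7, 86.8 and 90.1 CPM in h1 (log2 fold change 0.27, SE 0.04, edgeR adjusted p = 0.000139), and the sterol carrier Stard4 rose by 0.24 (adjusted p = 0.0142). No gene of the circadian clock loop, of retinoid metabolism, of nuclear-encoded oxidative phosphorylation or of the Hox clusters passed.

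The largest single differences were spread over genes of unlike roles. Aox4, an aldehyde oxidase, was at 2.19, 3.75 and 2.15 CPM in h4, against 0.788, 1.11 and 1.04 CPM in h1 (log2 fold change 1.43, SE 0.26, edgeR adjusted p = 0.0019). Eomes, a transcription factor of intermediate progenitors and of olfactory bulb and cerebellar unipolar brush neurons, was at 8.12, 8.37 and 8.55 CPM in h4, against 5.27, 3.39 and 3.50 CPM in h1 (1.03, SE 0.14, adjusted p = 0.000157). Slc14a1, a urea transporter of astrocytes, was at 32.9, 27.8 and 33.2 CPM in h4, against 19.3, 16.1 and 17.4 CPM in h1 (0.81, SE 0.08, adjusted p = 5.74e-06). Aox4, Eomes and Slc14a1 were called in all 6 leave-outs, and for each the WT mean (0.939, 4.99 and 20.8 CPM) lay nearer the h1 mean. Mroh7 had a value of 1.13 in counts (SE 0.14, edgeR adjusted p = 7.48e-05), but of 0.34 on the log2 scale of TPM, which also takes in the length estimates. Mmp19, Rhod, Tgtp1, Gbp4 and Exoc3l4 complete the 15 largest rises, with log2 fold changes of 0.85 to 1.02 and means of 1.91 to 3.43 CPM in h4.

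After Rorb, the largest fall was that of Egfl6, a secreted matrix protein, at 1.21, 0.707 and 1.02 CPM in h4, against 2.46, 2.55 and 3.54 CPM in h1 (log2 fold change -1.57, SE 0.24, edgeR adjusted p = 0.000421). Heph, a copper enzyme of iron export, was at 7.90, 7.72 and 8.43 CPM in h4, against 14, 15.3 and 11.8 CPM in h1 (-0.79, SE 0.10, adjusted p = 8.55e-05). Tfcp2l1, a transcription factor, and Ppp1r3g, a subunit that directs a phosphatase to glycogen, had log2 fold changes of -0.87 (SE 0.11, edgeR adjusted p = 8.77e-05) and -0.93 (SE 0.14, adjusted p = 0.000485). All 4 were called in every leave-out. Cort, the neuropeptide cortistatin of cortical interneurons, was at 0.549, 1.31 and 0.792 CPM in h4, against 2.26, 1.44 and 2.42 CPM in h1 (-1.22, SE 0.29, edgeR adjusted p = 0.0152), and was called in 2 of the 6 leave-outs. Pdzph1, Fam205a1, Asb11, Pmaip1, Cox6a2, Castor1, Myl4 and Megf6 were among the 15 largest falls, with log2 fold changes of -1.30 to -0.62. Tgtp1, Fam205a1, Ifit1 and H2-D1 belong to families of closely similar genes, so their values as single genes are uncertain.

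**Figure D5:**
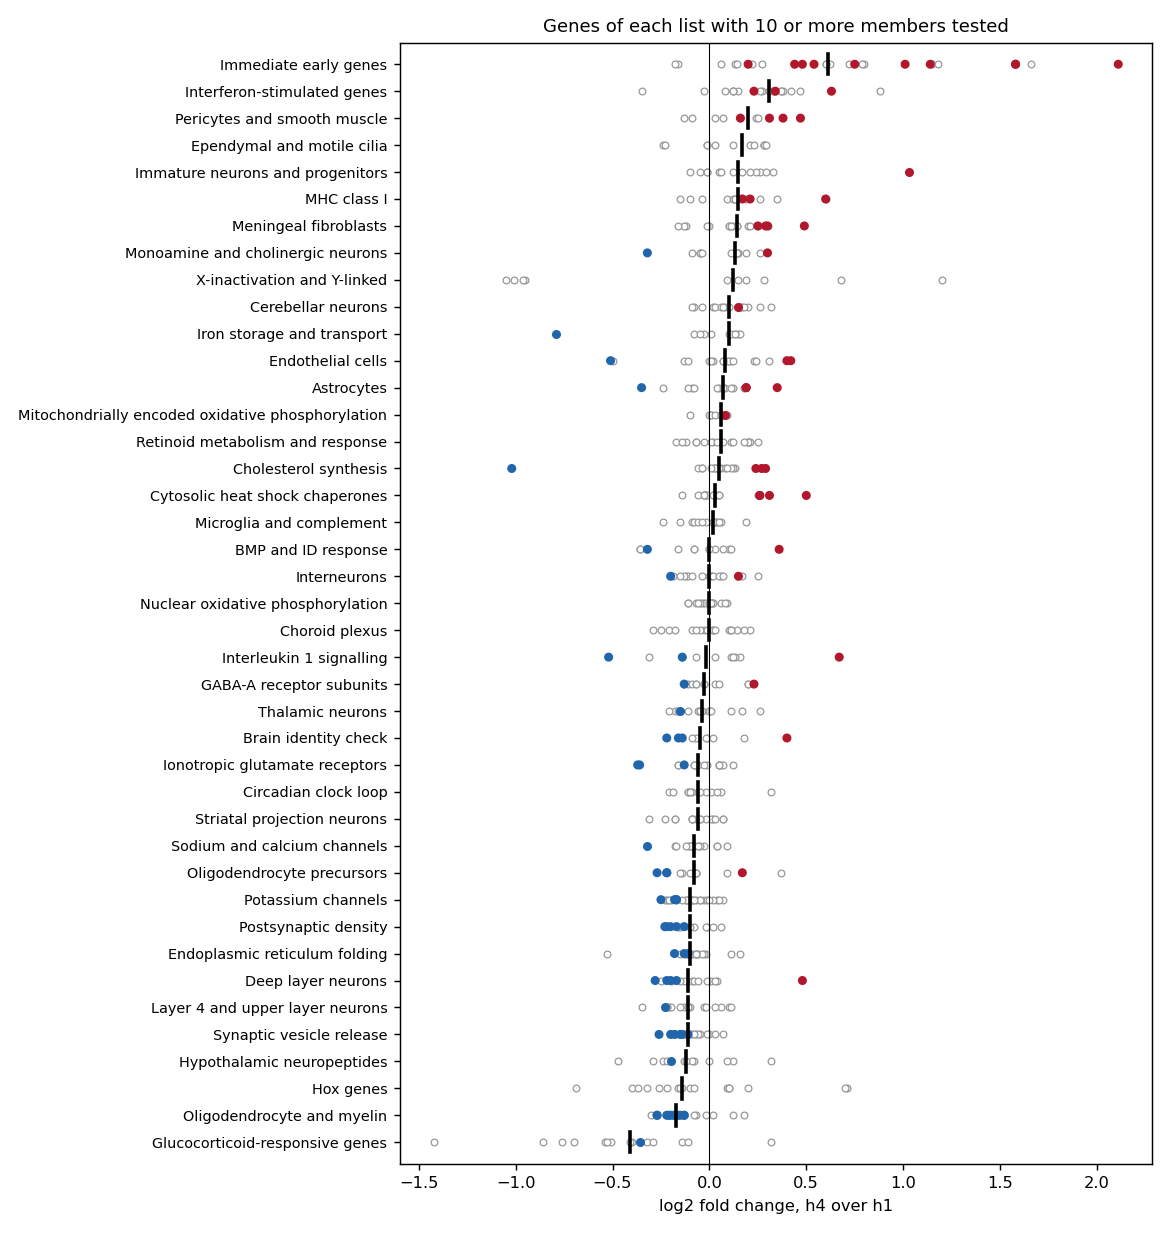
log2 fold change of h4 over h1 (horizontal axis) for every measured gene of the lists with 10 or more members tested; black bars are list medians, filled points passed an edgeR adjusted p under 0.05 (red higher in h4, blue lower) and open points did not. The medians run from 0.61 for the immediate early genes to -0.41 for the glucocorticoid-responsive genes.

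Some of the calls above did not hold in another fit of the same genes. With Xist as a covariate, 36 of the 122 called genes among those named by rule lost their call. Besides Arc and Fabp7, given above, these included 3 of the 4 mural genes, Notch3 (adjusted p = 0.068), Vtn (0.0612) and Tagln (0.0633), so that 1 mural call, Myh11, was left. The 3 potassium channels Kcna1 (adjusted p = 0.073), Kcnk2 (0.0964) and Kcnma1 (0.128) lost it too, as did Dlgap2 (0.101), Pvalb (0.0809), Sox9 (0.0605) and Cldn5 (0.0679). Among stress and immune genes the losses were Mt1 (adjusted p = 0.0575), Bag3 (0.0857), Hspb8 (0.112), Ifit1 (0.0973), B2m (0.0586), H2-D1 (0.0644), Tap1 (0.0582) and Il1rap (0.151). Among the largest rises and falls they were Gbp4 (adjusted p = 0.105), Fam205a1 (0.0837), Asb11 (0.0712), Pmaip1 (0.128) and Cox6a2 (0.0601).

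With all 12 libraries in 1 edgeR fit, 26 of the 122 lost their call. Besides those given with their genes, these included Tnr (adjusted p = 0.278), Kcnma1 (0.266), Tagln (0.134), Vtn (0.108), Pvalb (0.115), Dnajb1 (0.114), Bag3 (0.0746), Mt1 (0.0609) and Il1rap (0.0782). DESeq2 gave an adjusted p to 102 of the 122 and did not call 19 of these, among them Tagln (0.132), Il1rap (0.12), Bag3 (0.118), Hspb8 (0.0973), Kcnk2 (0.0852), Kcnma1 (0.0696), Vtn (0.0668), Dlgap2 (0.0621), Pvalb (0.0556) and H2-D1 (0.0527).

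Because the background labels differ, called genes were also counted by position in the GENCODE M21 annotation of GRCm38. Within 20 Mb of Il1r1 on chromosome 1, 17 of 175 genes tested were called (9.71%, against 6.14% of all genes), 9 higher and 8 lower. The share was 6.45% within 5 Mb, 8.33% from 5 to 10 Mb, 12.4% from 10 to 20 Mb and 6.19% from 20 to 50 Mb, with only 24 genes in the second bin. The 17 became 11 with all 12 libraries, and 10, 9, 10 and 11 without h1 replicate 2, h1 replicate 3, h4 replicate 1 and h4 replicate 3. Over all genes, the 981 calls became 765 with all 12 libraries, and 487, 431, 431 and 600 in the same leave-outs. Pantr1, a long non-coding RNA 2.47 Mb from Il1r1, was at 28.3, 36.9 and 31.4 CPM in h4, against 21.4, 21.7 and 22 CPM in h1 (log2 fold change 0.55, SE 0.08, edgeR adjusted p = 0.000697), and like Il1r1 it was highest in h4 replicate 2. Tgfbrap1, 2.87 Mb away, fell by 0.27 on the log2 scale (SE 0.05, edgeR adjusted p = 0.00165), and Paqr8, at 19.33 Mb on the other side, by 0.30 (SE 0.04, adjusted p = 0.00033). With all 12 libraries the adjusted p of Paqr8 was 0.105 and that of Clk1 0.0985. Clk1, Coq10b, Nab1, Aox4 and Col3a1 rose within the same window. Around Rorb on chromosome 19, 20 of 345 genes were called (5.80%), 8 higher and 12 lower, among them Npas4 at 14.12 Mb and Neat1, Psat1, Plpp6, Dagla and Hnrnpul2, whose log2 fold changes lay between -0.25 and -0.14, with an adjusted p of 0.141 for Neat1 in the fit to all 12 libraries. By chromosome, the share of called genes ran from 4.25% on chromosome 9 to 8.38% on chromosome 1 over the autosomes, and was 5.62% on X.

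Set beside the genotypes that entered no test, the WT mean lay between the h4 and h1 means for 667 of the 981 called genes (68%), against 38.7% of all genes tested. It lay nearer to h1 for 737 (75.1%), against 58.5% of all genes tested. Genes were called for a difference between h4 and h1, so these shares describe the called genes and carry no test. All WT libraries were high in Xist, unlike the mixed h4 and h1 groups, and the part of sex in these shares was not tested. The lists differed in this respect: the WT mean was between the groups for 8 of the 10 immediate early genes that rose, beyond h4 for all 12 myelin genes and beyond h1 for all 5 postsynaptic genes.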

How the data were processed

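Whole brains were cut up in RNAlater and RNA was extracted with TRIzol, and libraries of polyadenylated RNA were made with the unstranded TruSeq kit, per the labels' protocols, so a gene and its antisense partner cannot be told apart. Reads were processed with Bowtie2 2.2.0 and RSEM 1.2.12, per the submitters' processing notes. No source used here gives the genome build or the annotation. The authors deposited, per gene and library, an expected count (RSEM's estimate of fragments, shared among near-identical genes) and a TPM value, which is scaled to transcript length and library total. The transcript length deposited by the authors is averaged over the estimated isoforms. Of the deposited expected counts above 0, 77.7% were whole.

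Expected counts of the 6 libraries were rounded and tested with edgeR 4.0.16 in R 4.3.3 (TMM, robust quasi-likelihood), after its low-count filter had removed 22957 of 38924 genes. The common biological coefficient of variation was 0.0537. SE is the log2 fold change divided by the square root of F. Every adjusted p of this main fit is over the 15967 genes tested. Those of another fit are over the genes given one in it, such as 16493 with all 12 libraries and 11937 with DESeq2. The tests were run on simulated counts first. Symbols and positions came from GENCODE M21 by identifier, which held 37607 of the genes. The labels name 3 mice per genotype, and libraries of a group differed by more than counting error.

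The contrast, the 49 gene lists and the genes named were chosen with earlier results of these data known. Named were Rorb and Il1r1, the 15 largest rises and falls of called genes that averaged 1 CPM or more and whose libraries did not overlap, up to 4 called genes per list, and called genes within 20 Mb of Il1r1 or Rorb. Pseudogenes and genes with Gm or Rik names were counted only, and some genes that the rule took are not reported here. Alternatives were a fit to all 12 libraries, DESeq2 1.42.0 and its size factors, no low-count filter, a mean of at least 1 CPM, limma 3.58.1 on log2(TPM + 0.1), Xist as a covariate and leaving out each library. limma on log2 CPM was added after the data were seen.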

Additional observations from a re-analysis of the deposited data

How the results depend on the processing

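The number of genes called, 981, was 1567 with no low-count filter and 72 with limma on TPM, of which 40 were higher in h4 (55.6%, against 42.2% of the 981). With limma on log2 CPM it was 948, with all 12 libraries 765, with DESeq2 660 and with the Xist covariate 659. Over the leave-outs it ran from 431 to 1155. Of the 981, 719 were called with all 12 libraries, 593 by DESeq2, 597 with the Xist covariate and 65 by limma on TPM. The called genes of the lists, 102, were 175 with no filter, 15 with limma on TPM and 56 to 122 over the leave-outs. The 17 calls near Il1r1 were 11 with all 12 libraries, 11 with DESeq2, 1 with limma on TPM and 9 to 16 over the leave-outs. Il1r1 had a log2 fold change of 0.63 with limma on TPM (adjusted p = 0.141) and 0.46 to 0.80 over the leave-outs. Rorb kept its call in every alternative but those that left out h4 replicate 2 or h4 replicate 3, with log2 fold changes of -1.70 to -1.40 over the leave-outs. None of the 122 called genes among the 145 named changed sign in any of the 14 alternatives. Where the libraries of the groups did not overlap, leaving out 1 library could hardly turn the sign. The cause of these shifts was not tested. No paired analysis was possible because the titles of h4 and h1 libraries share fewer than 2 numbers. Of the 3992 genes of lowest mean CPM, 33 were called higher and 18 lower, against 127 and 379 of the 3992 of highest mean CPM, and counting error is largest, relative to the level, for the first.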

Other observations

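Of the 981 called genes, 26 that were higher and 23 that were lower in h4 were pseudogenes, predicted genes or had no gene name. One of them, the processed pseudogene Gm10108 on chromosome 5, had no expected count in any of the 3 h4 libraries and 14.01, 38.53 and 29.07 in the h1 libraries. Its value as a single locus is uncertain, since RSEM shares reads among near-identical sequences. It was picked out after its values were seen.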
